A study of Homo sapiens with 9 samples.

Results

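Glutamate, GABA and glycine receptor genes were followed through maps of H3K9me3, a histone mark of silent heterochromatin, in hTERT RPE-1 cells. These cells are a widely used established line from the human retinal pigment epithelium, made immortal with telomerase. The genes were taken by symbol from the autosomal protein-coding genes of GRCh38, and 44 of 19126 such genes met the rule. They comprise 3 AMPA receptor genes (GRIA), 5 kainate (GRIK), 2 delta (GRID), 7 NMDA (GRIN), 8 metabotropic glutamate (GRM), 16 GABA-A (GABR) and 3 glycine receptor genes (GLRA and GLRB). Another 5 genes of these families lie on the X chromosome and were left out by the rule. The study set stable lines overexpressing mCherry-LmnB1, in which lamin B1, a filament protein of the nuclear lamina, carries the red fluorescent protein mCherry, against lines overexpressing mCherry. LmnB1_16 and LmnB1_6 were the lamin lines, mCherry_3 and mCherry_4 were the control lines, and every line gave 2 biological replicates, for 4 libraries per construct. All of these cells were given doxycycline at 0.05 ug/mL for 24 hours. Each line is a single clone, so each construct rests on 2 clones. The libraries used here hold no RNA, so neither the expression of the receptors nor the markers of the cell type could be checked in them.

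Ionotropic glutamate receptors are cation channels opened by glutamate. AMPA receptors carry most fast excitation between neurons, NMDA receptors let calcium in and act in synaptic plasticity, kainate receptors tune transmission, and delta receptors organise synapses by binding cerebellins. Metabotropic glutamate receptors couple to G proteins. GABA-A and glycine receptors are chloride channels that mediate fast inhibition, and their subunit genes of the GABA-A family sit largely in clusters that arose by duplication. These genes are best known from neurons, and some also work in the retina, where GRM6 is the glutamate receptor of ON bipolar cells and rho subunits (GABRR) form GABA receptors of bipolar cells.

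The measurement is the percent of each gene body that lay inside listed H3K9me3 domains. A gene outside the list of a library is not shown to lack the mark, since a domain is listed only past a log2 enrichment over input of 0.6. H3K9me3 reads inside domains ran from 2855378 to 10321442 per library, and depth relative to the shared input was 0.880 to 1.01 with LmnB1 and 0.421 to 0.859 with mCherry. Depth and construct therefore cannot be told apart. The lists of LmnB1_6 replicate 2 and mCherry_4 replicate 2 covered the least of the genome, 357 and 319.7 Mb against 429 to 646 Mb in the other 6. Their depths relative to the input were 0.902 and 0.859. The lowest depth, 0.421, was that of mCherry_4 replicate 1, whose list covered 429 Mb. Over domains of identical coordinates, the read counts of the mCherry_3 pair were not separable from sampling noise (chi-square test over 229 domains, p = 0.197). Their chi-square per degree of freedom was 1.08, close to the 1.10 of LmnB1_16, which had 648 such domains (chi-square p = 0.0380). In LmnB1_6 and mCherry_4, with 61 and 28 such domains, it was 1.73 and 1.67 (chi-square p of 0.000368 and 0.0162). Only domains with the same edges in both replicates entered, so the test does not compare whole lists. The lists of the mCherry_3 pair were not identical, so both were kept, and the fits were repeated with their mean counted as 1 sample.

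Coverage differed widely among the receptor genes. Of the 44 genes, 19 were at 0 in all 8 libraries and 15 were covered over at least 50% of their length in 1 or more libraries. That share of 34.1% compares with 8.39% of all autosomal genes. At a length of at least 100 kb it was 9 of 25 receptor genes (36%) against 12.1% of 3210 autosomal genes. Under 100 kb it was 6 of 19 (31.6%) against 7.63%. A coverage of 50% was reached throughout, in each of the 8 libraries, by 8 receptor genes, or 18.2%, against 1.89% of all autosomal genes. Of at least 100 kb were 6 of 25 receptor genes (24%) against 2.74% of autosomal genes, and under 100 kb 2 of 19 (10.5%) against 1.72%. The count of 8 rests on the lists as deposited. It was 5 at equal covered length (11.4%, against 1.38% of all autosomal genes). In the highest-scoring 50% of domains it was 0 (against 0.654%), and in domains of a log2 of at least 1 it was 0 (against 0.0366%). The median gene length was 146 kb in the receptor set and 24.5 kb over all autosomal genes, and 9 of the 15 genes lie in 3 GABR clusters, where neighbours can share a domain. The genes are thus not independent, and no test was made of these shares. Among 69 genes of other transmitter receptors (acetylcholine, serotonin, dopamine, adrenergic, histamine and purine), 5 reached 50% in some library and 0 in all 8. Those genes are shorter, with a median length of 18.2 kb, and their share of 7.25% in some library stands beside 7.63% of autosomal genes under 100 kb. The 8 receptor genes covered throughout included GABRA6, GABRB2, GABRG3, GRIN2B, GRM3 and GRM7. No receptor gene reached 90% in all 8 libraries, while 157 genes in the genome's autosomes did.

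**Figure D1:**
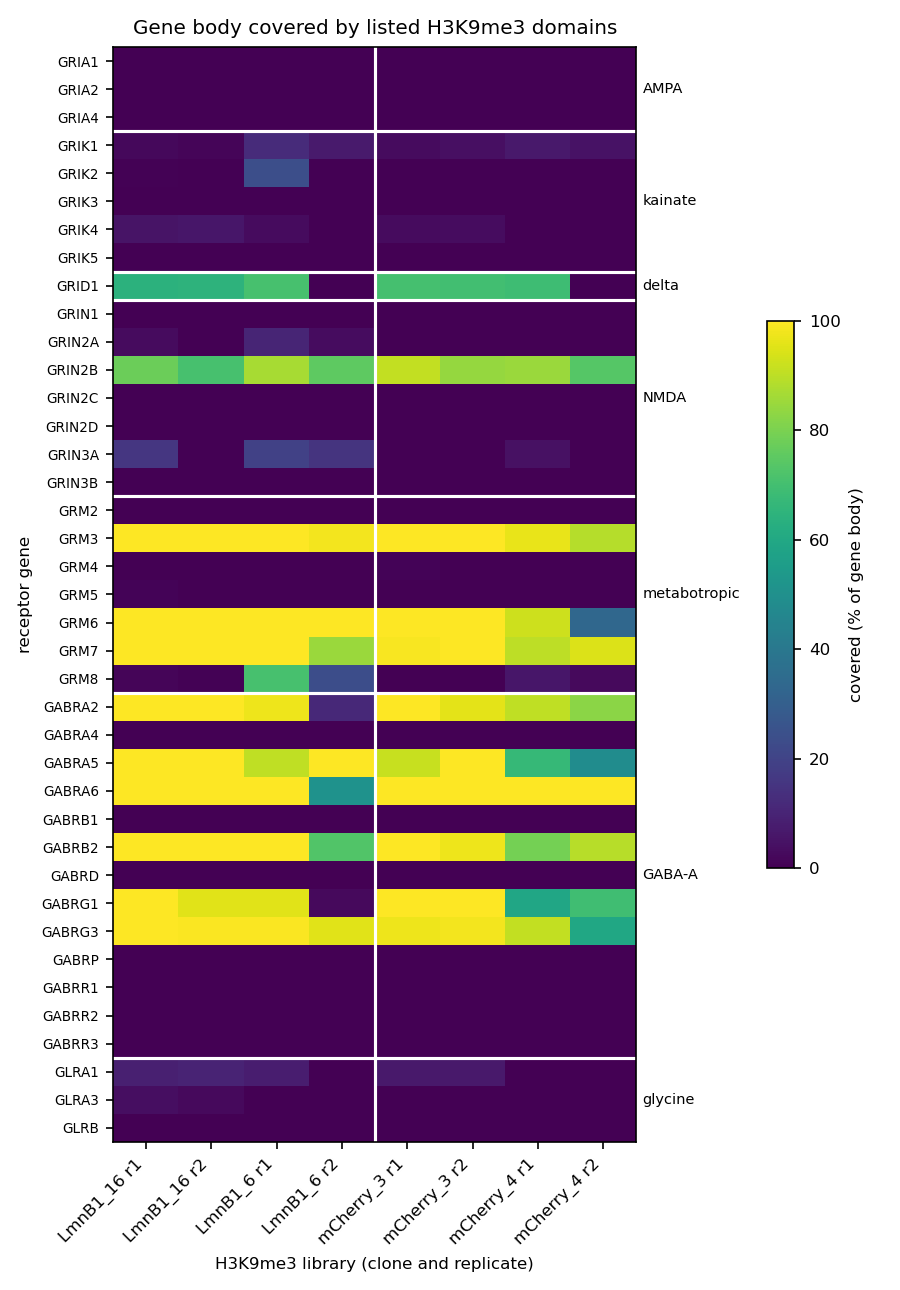
Percent of the gene body covered by listed H3K9me3 domains (colour, 0 to 100%) for 39 receptor genes (rows, by class) in 8 libraries (columns, r1 and r2 are replicates, LmnB1 left of the white line). GABA-A genes of 3 clusters, GRM3, GRM6, GRM7 and GRIN2B are bright in most columns, and the 3 AMPA genes are at 0 throughout.

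By library the number of receptor genes covered over at least 50% came to 14, 14, 15 and 10 with LmnB1 and 14, 14, 14 and 11 with mCherry. Here and below, 4 values with LmnB1 are those of LmnB1_16 (replicate 1, then 2) before LmnB1_6, and 4 values with mCherry are those of mCherry_3 before mCherry_4. The low numbers thus came from LmnB1_6 replicate 2 and mCherry_4 replicate 2, the libraries with the least covered genome. In these, 3.40% and 2.98% of all autosomal genes reached 50%, against 4.41% to 6.45% in the others. Summed over the 44 gene bodies, domains covered 2.51 Mb in mCherry_4 replicate 2 at the lowest and 4.57 Mb in LmnB1_6 replicate 1 at the highest.

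**Figure D2:**
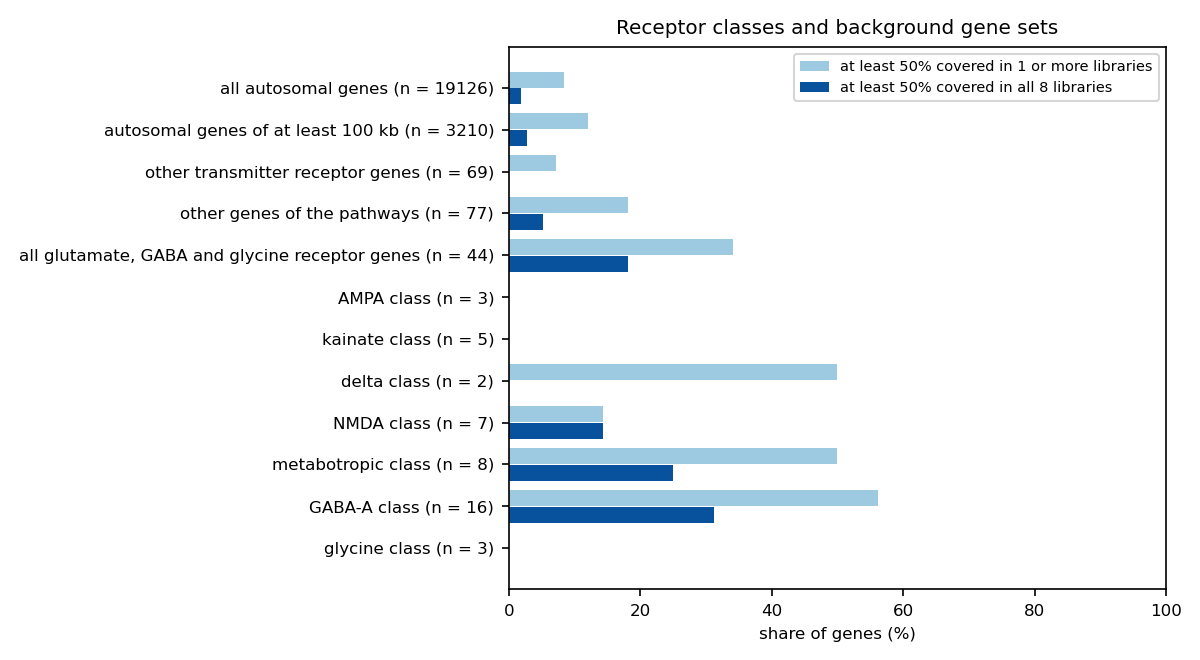
Share of genes (%, horizontal axis from 0) covered over at least 50% of the body in 1 or more libraries (light bars) and in all 8 (dark bars), for background gene sets and for each receptor class, with the number of genes in brackets. GABA-A genes stand at 56.2% and 31.2%, all autosomal genes at 8.39% and 1.89%, and the AMPA, kainate and glycine classes have no bar.

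GABA-A receptors are pentamers, commonly of alpha, beta and gamma subunits, and the 16 autosomal GABR genes split sharply by locus. Of these, 9 had a listed domain, and all 9 lay in 3 clusters on chromosomes 4, 5 and 15. All 9 reached 50% in at least 7 libraries. The other 7 were at 0 in all 8 libraries: GABRA4 and GABRB1 in the chromosome 4 cluster, the rho genes GABRR1 and GABRR2 next to each other on chromosome 6, and GABRR3, GABRD and GABRP, which stand alone. GABRD encodes the delta subunit of extrasynaptic receptors, and GABRP the pi subunit, known from tissues outside the brain.

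On chromosome 5, GABRB2 and GABRA6 lay in H3K9me3 domains in every library. GABRB2 (161288436 to 161548404), the beta2 subunit, was covered over 100%, 100%, 100% and 72.9% with LmnB1 and 100%, 97.5%, 79.2% and 89.2% with mCherry. GABRA6 (161685721 to 161702592), an alpha subunit of cerebellar granule cells, was at 100% in 7 libraries and 50.9% in LmnB1_6 replicate 2. LmnB1_6 replicate 2 was the lowest library for both genes, and in the other 7 libraries both were covered over at least 79.2%. The domain over GABRB2 was a single one of 2564 kb in LmnB1_16 replicate 1, which also held GABRA6, while in mCherry_4 replicate 2 GABRB2 was met by 5 separate domains.

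On chromosome 15, GABRA5 and GABRG3 were covered over more than 90% in every LmnB1 library. GABRA5 (26866719 to 26949208), an alpha subunit of hippocampal extrasynaptic receptors, was at 100%, 100%, 90.3% and 100% with LmnB1 and at 91.5%, 100%, 67.02% and 48.5% with mCherry. GABRG3 (26971181 to 27541984), a gamma subunit gene of 571 kb, was at 100%, 99.3%, 99.3% and 95.4% with LmnB1 and at 97.4%, 98.1%, 90.9% and 59.7% with mCherry. Here LmnB1_6 replicate 2 was at 95.4% or more in both genes, and mCherry_4 replicate 2 was the lowest for both. The pigmentation gene OCA2, next to GABRG3, had a mean of 84.1% over the 8 libraries, so coverage ran on past the receptor genes. At equal covered length the mean over the 8 libraries was 47.2% for GABRA5 and 66.4% for GABRG3, against 87.2% and 92.5% with the full lists.

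The cluster on chromosome 4 was divided. GABRG1 (46035769 to 46124054), a gamma subunit, was covered over 100%, 95.5%, 95.5% and 2.53% with LmnB1 and over 100%, 100%, 59.2% and 69.4% with mCherry. GABRA2 (46243548 to 46390300), an alpha subunit of forebrain receptors, was at 100%, 100%, 97.3% and 11.6% with LmnB1 and at 100%, 95.9%, 90.3% and 82.8% with mCherry. For both genes LmnB1_6 replicate 2 stood far below the other 7 libraries. GABRA4 (46918900 to 46993581) and GABRB1 (46993647 to 47426447), at the other end of the same cluster, were at 0 in every library. The last domain between GABRA2 and GABRA4 ended 141 to 228 kb before GABRA4 in 6 libraries, 314 kb before it in mCherry_4 replicate 2 and 492 kb before it in LmnB1_6 replicate 2. At equal covered length the mean over the 8 libraries was 23.1% for GABRA2 and 16.7% for GABRG1, against 84.7% and 77.8% with the full lists. With the full lists the boundary lay in the same gap of 529 kb between genes in all 8 libraries.

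**Figure D3:**
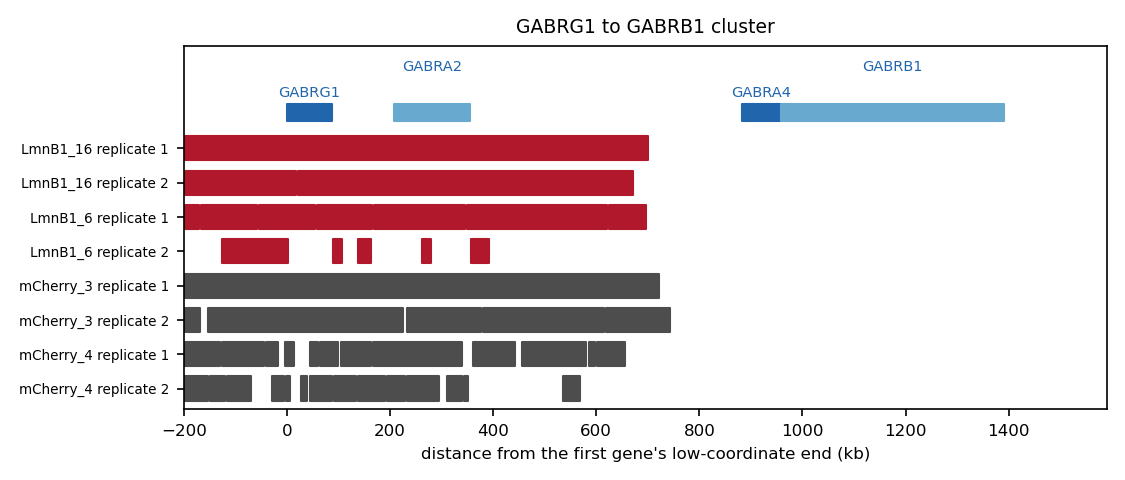
Listed H3K9me3 domains (bars, 1 row per library, LmnB1 red and mCherry grey) over the GABR cluster of chromosome 4, from 200 kb before to 200 kb after it. The horizontal axis is the distance in kb from the low-coordinate end of the first gene, and blue boxes are the genes. Domains lie over GABRG1 and GABRA2, and stop between GABRA2 and GABRA4 in all 8 libraries.

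Metabotropic glutamate receptors included some of the most evenly covered genes. GRM3 (chromosome 7, 86643909 to 86864879), a receptor that lowers cyclic AMP and is found on neurons and glia, was at 100%, 100%, 100% and 98.2% with LmnB1 and at 100%, 100%, 96.8% and 88.7% with mCherry. GRM7 (chromosome 3, 6861115 to 7741533), a presynaptic receptor encoded by a gene of 880 kb, was at 100%, 100%, 100% and 84.8% with LmnB1 and at 99.2%, 100%, 90.2% and 94.7% with mCherry. The longest domain over GRM7 measured 2810 kb in LmnB1_16 replicate 1, and in mCherry_4 replicate 1 the gene held 17 separate domains, the longest of 278 kb. The pooled log2 enrichment over input of the domains at GRM7, from the authors' counts, was lowest in LmnB1_6 replicate 2, at 0.68, and highest in LmnB1_16 replicate 1, at 1.34. Pooled over all domains, these libraries stood at 0.71 and 1.14.

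GRM6 (chromosome 5, 178978327 to 178995320), a short gene of 16.99 kb and the glutamate receptor of ON bipolar cells, was covered over 100% in all LmnB1 and mCherry_3 libraries and over 92.2% and 33.4% in mCherry_4. Genes within 200 kb of it included the zinc finger genes ZNF354C, ZNF879, ZNF454 (which overlaps it), ZFP2 and ZNF354B, with means over the 8 libraries of 100%, 98.8%, 96.4%, 93.6% and 45.9%. The mean of ADAMTS2, also within 200 kb, was 76.9%. The domain over GRM6 in LmnB1_16 replicate 1 had a log2 enrichment of 1.61, above the 1.05 to 1.34 of the domains over the other 11 receptor genes covered over at least 90% in that library. GABR genes of the same cluster shared 1 domain there, so those 11 genes stand for fewer domains.

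GRM8 (chromosome 7, 126438598 to 127252941), a presynaptic receptor, was covered most in 1 clone. It was covered over 1.23%, 0.49%, 71.0% and 23.7% with LmnB1 and over 0, 0, 5.89% and 2.70% with mCherry. Both LmnB1_6 replicates lay above the other 6 libraries, and LmnB1_16 did not lie above mCherry_4. The remaining metabotropic genes were almost free of domains. GRM2 was at 0 in all 8, GRM5 was at 0.89% in LmnB1_16 replicate 1 alone, and GRM4 was at 0.99% and 0.26% in mCherry_3 and 0 elsewhere.

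Among NMDA receptor genes, GRIN2B (chromosome 12, 13537337 to 13982134), the GluN2B subunit of developing circuits, was the one broadly covered. It was at 77.6%, 70.8%, 87.0% and 75.3% with LmnB1 and at 90.9%, 84.3%, 84.8% and 73.5% with mCherry, and the groups overlapped. Its paralogue GRIN2A, the GluN2A subunit, was at 3.03%, 0, 10.5% and 3.49% with LmnB1 and at 0 in all mCherry libraries. GRIN3A (chromosome 9, 101569352 to 101738647), the GluN3A subunit that lowers calcium entry, was at 15.7%, 0, 19.3% and 15.1% with LmnB1 and at 0, 0, 4.52% and 0 with mCherry. The groups overlapped through LmnB1_16 replicate 2, which was at 0, and the other 3 LmnB1 libraries were above all mCherry libraries. GRIN1, the subunit that every NMDA receptor needs, and GRIN2C, GRIN2D and GRIN3B were at 0 in all 8.

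GRID1 (chromosome 10, 85599552 to 86366795), the delta1 receptor, was either covered over most of its length or at 0. It was at 64.4%, 64.8%, 70.8% and 0 with LmnB1 and at 70.7%, 69.7%, 69.0% and 0 with mCherry. In the 6 libraries with coverage a single domain of 732 to 781 kb lay over the gene, and its low end was at 85362001 in all 6. Its high end ran from 86094000 to 86143000. The 2 libraries at 0 were those with the least covered genome. The mean over the 8 libraries was 51.2%, and 8.06% at equal covered length.

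AMPA, kainate and glycine receptor genes held few domains, and none of these 11 genes reached 50% in any library. The AMPA genes GRIA1, GRIA2 and GRIA4, of 324, 146 and 372 kb, were at 0 in all 8. Of the kainate genes, GRIK3 and GRIK5 were at 0, GRIK4 was at 5.87% or less, and GRIK2 was at 24.0% in LmnB1_6 replicate 1, 0.59% in LmnB1_16 replicate 1 and 0 elsewhere. GRIK1 (chromosome 21, 29536933 to 29939996) was listed in all 8 libraries at 1.24% to 12.2%, and the first domain in it began 354 to 398 kb from its low-coordinate end. The 200 kb beyond its high-coordinate end were covered over 99.9% on average, and those beyond its low-coordinate end over 0. Among glycine receptors, GLRA1, mutated in startle disease, was at 8.79%, 9.77%, 7.82% and 0 with LmnB1 and at 6.84%, 6.84%, 0 and 0 with mCherry. GLRA3 was at 3.64% and 2.60% in LmnB1_16 and 0 elsewhere, and GLRB, the beta subunit that binds the scaffold gephyrin, was at 0.

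**Figure D4:**
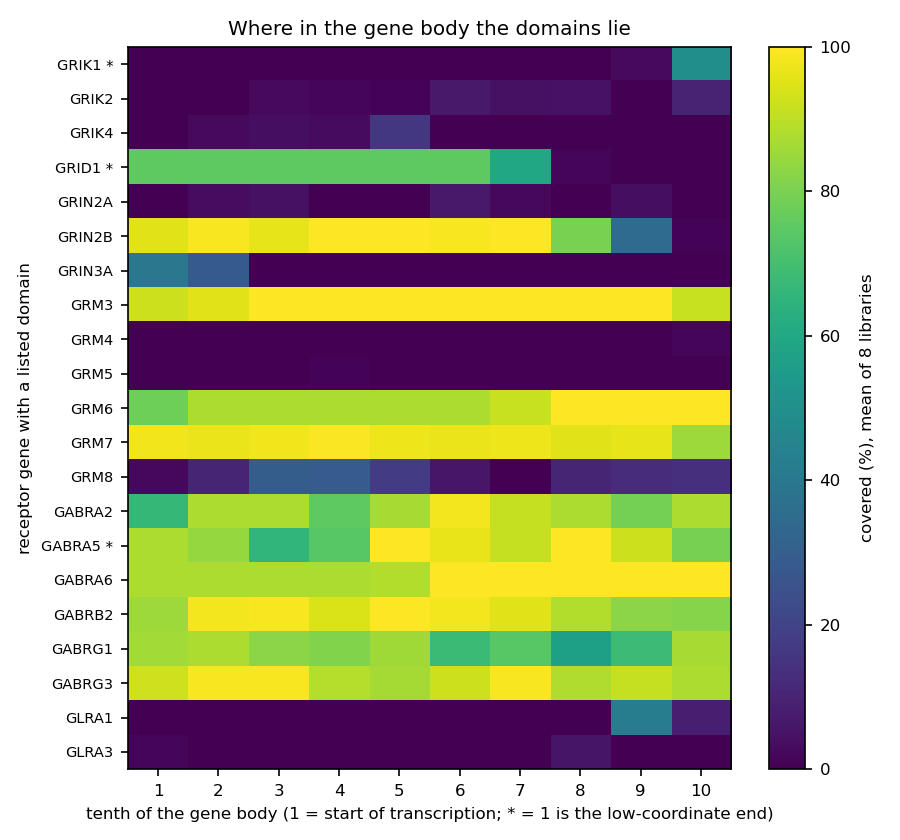
Percent covered (colour, mean of 8 libraries) in each of 10 equal parts of the gene body for 21 receptor genes with a listed domain. The horizontal axis runs from the start to the end of transcription, or from the low to the high coordinate for genes marked with an asterisk, whose strand was not in the table. GRIN2B and GRID1 are covered from one side and bare at the other, and GRIN3A is covered in its first 2 parts only.

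Most of the broadly covered genes lay inside wider covered regions. For 12 genes, the 9 GABA-A genes with domains plus GRM3, GRM6 and GRM7, the 200 kb on both sides were also covered over at least 50% on average. GRIN2B was covered over at least 95.5% on average in each of its first 7 of 10 equal parts and over 1.07% in the last. Its first domain began 40.7 to 129.7 kb inside the gene from the low-coordinate end, where transcription ends, in the 8 libraries. In GRID1 the covered side was the low-coordinate one. GRIN3A carried its coverage at the start, with 40.2% and 28.2% on average in the first 2 of 10 parts and 0 in the rest.

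Starts of transcription were read from 300-base windows of a RefSeq table (GRCh38.p14), from 250 bases before to 50 after the start, which held 33 of the 44 genes. A start was counted as listed when at least 50% of its window lay in a domain. None of the 33 starts was listed in all 8 libraries, against 1.13% of 15101 autosomal genes, and 23 were listed in none, or 69.7% against 91.6%. Of the 6 receptor genes with a window that kept a coverage of 50% or more throughout, the start was listed in 5 to 7 libraries. That was 7 for GABRA6, GRIN2B and GRM7, 6 for GABRG3 and GRM3, and 5 for GABRB2. Among the 283 autosomal genes covered to that extent, 50.9% had the start listed in all 8, and among the 69 of these of at least 100 kb it was 20.3%. The count of starts listed throughout was 1 without LmnB1_6 replicate 2, without mCherry_3 replicate 1 or without mCherry_4 replicate 2, and 2 with domains under 10 kb apart joined. GRM8 and GLRA1 had a body of which at least 5% was covered on average and a start listed in none.

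The windows below show starts on both sides of the domains, read from RefSeq, 5′ to 3′ on the transcribed strand, with each CG dinucleotide in capitals. CG is its own reverse complement, so the count holds for both strands. All 33 receptor windows and 98.1% of the 15101 autosomal windows held at least 1 CG. GRM8 (chr7:127252892-127253191, minus strand) and GLRA1 (chr5:151924802-151925101, minus strand) are shown as the pair that passed the 5% mean on the body while the start was listed in no library. GABRA2 (chr4:46390251-46390550, minus strand), GABRA4 (chr4:46993532-46993831, minus strand) and GABRA6 (chr5:161685471-161685770, plus strand) were chosen after their values were seen, the first pair as the covered and the bare side of the chromosome 4 cluster.
GABRA2: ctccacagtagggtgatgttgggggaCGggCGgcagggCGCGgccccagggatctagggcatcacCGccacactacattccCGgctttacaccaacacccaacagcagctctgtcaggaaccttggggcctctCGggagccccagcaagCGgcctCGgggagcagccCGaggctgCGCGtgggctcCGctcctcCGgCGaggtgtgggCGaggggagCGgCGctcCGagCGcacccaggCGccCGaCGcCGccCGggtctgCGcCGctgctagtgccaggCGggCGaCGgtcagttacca
GABRA4: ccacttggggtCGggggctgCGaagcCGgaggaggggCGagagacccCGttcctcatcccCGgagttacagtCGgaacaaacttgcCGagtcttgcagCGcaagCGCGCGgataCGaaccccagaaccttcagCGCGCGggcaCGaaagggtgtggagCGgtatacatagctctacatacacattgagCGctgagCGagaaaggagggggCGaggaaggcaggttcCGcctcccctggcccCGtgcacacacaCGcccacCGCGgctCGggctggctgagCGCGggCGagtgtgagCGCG
GABRA6: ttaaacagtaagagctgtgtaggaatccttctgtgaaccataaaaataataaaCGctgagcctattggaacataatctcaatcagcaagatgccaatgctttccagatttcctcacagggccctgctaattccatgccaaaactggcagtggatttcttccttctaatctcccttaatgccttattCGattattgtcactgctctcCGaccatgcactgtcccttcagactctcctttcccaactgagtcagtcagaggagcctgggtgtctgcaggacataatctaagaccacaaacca
GRM8: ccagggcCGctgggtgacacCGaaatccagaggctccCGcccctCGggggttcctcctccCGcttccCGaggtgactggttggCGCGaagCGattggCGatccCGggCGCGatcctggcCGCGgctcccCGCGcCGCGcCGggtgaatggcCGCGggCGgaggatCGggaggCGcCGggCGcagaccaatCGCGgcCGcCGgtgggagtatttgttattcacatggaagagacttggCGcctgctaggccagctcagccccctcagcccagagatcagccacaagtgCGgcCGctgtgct
GLRA1: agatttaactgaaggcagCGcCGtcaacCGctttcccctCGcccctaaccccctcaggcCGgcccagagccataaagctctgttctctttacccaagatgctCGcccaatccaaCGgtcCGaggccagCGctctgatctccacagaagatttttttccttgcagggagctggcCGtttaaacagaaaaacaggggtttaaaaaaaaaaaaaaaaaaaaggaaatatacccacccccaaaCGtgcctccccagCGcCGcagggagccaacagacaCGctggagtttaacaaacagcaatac
The GABRA2 window held 30 CG and was listed in 5 of 8 libraries, and the GABRA4 window held 32 CG and was listed in 0. The GABRA6 window held 3 CG and was listed in 7. GRM8 and GLRA1 held 34 and 14. Over all autosomal windows the median was 3 CG for the 171 starts listed in all 8 libraries and 23 for the 13833 listed in none, while the receptor windows listed in none had a median of 14.

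LmnB1 and mCherry libraries were compared to ask whether excess lamin B1 went with other coverage over these genes. Protein-coding genes covered over at least 5% on average were fitted in limma, the clone being a random block, and p-values were adjusted by Benjamini-Hochberg over all of them. Of the 44 genes, 18 passed that filter, and 0 were called at an adjusted p below 0.05, where 7 of 2304 genes, or 0.304%, were called in all, 0.217% higher and 0.0868% lower with LmnB1. At an unadjusted p below 0.05 there were again 0 of the 18, against 3.65% of all tested genes. That number was 2 of 14 at a log2 of at least 1 (8.66% of all tested genes), 1 of 18 with no clone block (7.25%), 1 of 17 without LmnB1_16 replicate 2 (2.19%) and 0 in the other alternatives. The LmnB1 and mCherry values overlapped in all 18, while over all tested genes they did not overlap in 2.69% (LmnB1 higher) and 0.391% (LmnB1 lower). The mean difference, LmnB1 minus mCherry, was above 0 in 12 of the 18 genes and in 60.3% of all tested genes. Its median was 2.45 percentage points in the 18 genes and 3.73 over all tested. Without LmnB1_6 replicate 1 these medians were -2.93 and 0.27 points, and without LmnB1_6 replicate 2 they were 8.495 and 8.77. At equal covered length they were -11.5 and 1.71, and at a log2 of at least 1 they were 32.2 and 25. The split of directions moved with the scaling. After subtracting each library's mean, 6 of 18 were above 0 (42.9% of all tested genes), and the median over all tested genes was -2.97 points. Above 0 were 7 of 15 at equal covered length (54.0% of all), and 14 of 14 in domains of a log2 of at least 1 (86.2% of all). That log2 cut favours LmnB1_16, whose log2 pooled over all domains was 1.14 and 0.951, against 0.932 or less in the other libraries. A positive difference is therefore partly built into the genes that pass the filter at that cut. The standard error ran from 3.27 to 31.2 points in these genes, and its median was 10.5 points, which limits the differences that could be resolved.

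The differences furthest from 0 were in GRM8, GABRA5, GRM6 and GABRA2. GRM8 was at 24.1 ± 33.1% with LmnB1 and 2.15 ± 2.80% with mCherry (SD, n = 4 each), which differ by 21.96 points (SE 18.6, limma adjusted p = 0.911). It passed the filter of 5% through the LmnB1_6 libraries alone, so that a difference was built into its selection, and it was not tested without LmnB1_6 replicate 1, the library at 71.0%. At equal covered length the difference was 11.6 points. GABRA5 was at 97.6 ± 4.85% and 76.8 ± 23.5% (20.8 points, SE 12.4, limma adjusted p = 0.908), and its difference was 13.5 points without mCherry_4 replicate 2, 5.54 in the highest-scoring 50% of domains and -13.9 at equal covered length. GRM6 was at 100% and 81.4 ± 32.2% (18.6 points, SE 19.6, limma adjusted p = 0.911), and the fitted difference was 11.9 points after subtracting library means, 8.76 for the gene body plus 50 kb, 1.94 at a log2 of at least 1, 3.16 without mCherry_4 replicate 2 and 28.4 without mCherry_4 replicate 1. GABRA2 was at 77.2 ± 43.8% and 92.2 ± 7.47% (-15.0 points, SE 27.6, limma adjusted p = 0.947). The fitted difference was 6.60 points without LmnB1_6 replicate 2, and -32.4 without LmnB1_6 replicate 1. It was -40.4 points at equal covered length, -26.1 in the highest-scoring 50% of domains, -8.31 for the gene body plus 50 kb and 25 at a log2 of at least 1. At that log2 only LmnB1_16 replicate 1 kept a domain over GABRA2.

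Single libraries moved the next genes as well. GABRA6 and GABRG1 differed by -12.3 and -8.78 points (limma adjusted p of 0.911 and 1.0), and by 0 and 14.6 points without LmnB1_6 replicate 2. Without LmnB1_6 replicate 1 they differed by -22.3 and -27.7 points, and at a log2 of at least 1 by 50 and 25 points. At that log2 only LmnB1_16 libraries kept domains over these genes. Across the alternatives other than left-out libraries, GABRA6 ran from -18.97 to 50 points and GABRG1 from -21.8 to 25. GABRG3 differed by 12.0 points (limma adjusted p = 0.911), and by 3.56 points without mCherry_4 replicate 2. After subtracting library means its difference was 5.28 points, at a log2 of at least 1 it was 24.2, and at equal covered length it turned to -21.7 points. GRIN3A differed by 11.4 points (12.5 ± 8.56% and 1.13 ± 2.26%, SE 5.72), with an unadjusted limma p of 0.0880, and did not pass the adjustment (limma adjusted p = 0.907). It passed the filter of 5% through the LmnB1 libraries alone, so that a difference was built into its selection, and it was not tested at a filter of 10% or at equal covered length. Its difference was 15.5 points without LmnB1_16 replicate 2 (limma adjusted p = 0.549), and 4.71 points after subtracting library means (limma adjusted p = 0.916).

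**Figure D5:**
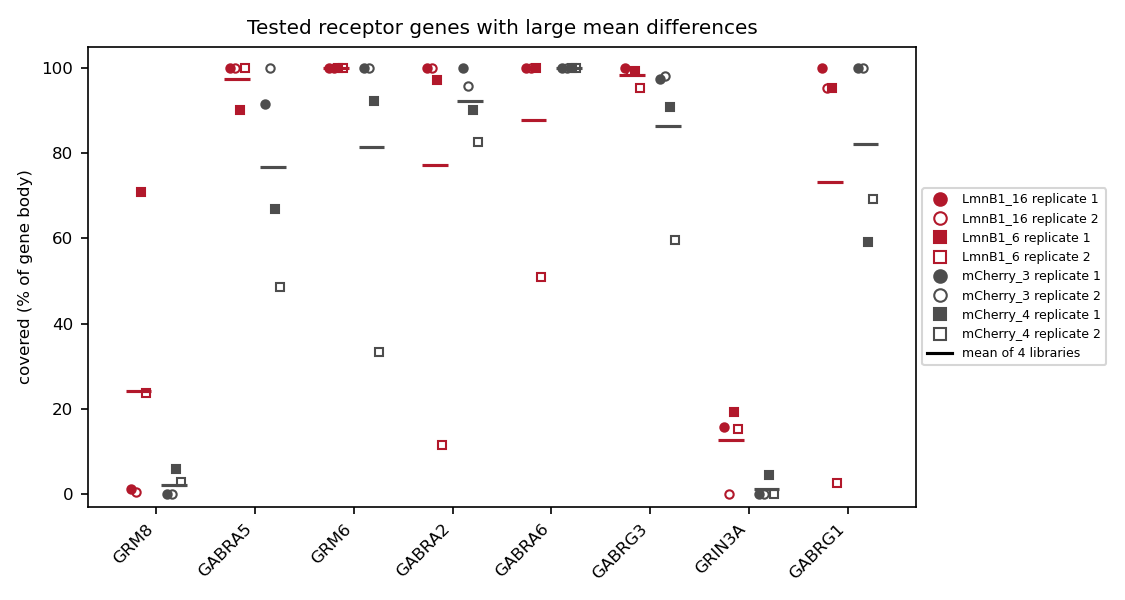
Percent of the gene body covered (vertical axis) in each library for 8 tested receptor genes with large mean differences between constructs. Points are libraries (LmnB1 red, mCherry grey, symbol by clone, filled for replicate 1 and open for replicate 2), and bars are means of 4 libraries. The red open square, LmnB1_6 replicate 2, is far below the other red points in GABRA2, GABRA6 and GABRG1.

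In 6 receptor genes, listed domains overlapped the gene body in libraries of 1 construct only. Of these, 5 were listed in LmnB1 libraries and in no mCherry library, GRIK2, GRIN2A, GLRA3 and GRM5 among them, and GRM4 in mCherry libraries and in no LmnB1 library. The first count is 11.4% of the 44 genes, where all autosomal genes gave 7.79%, and the second 2.27%, where all gave 1.17%. All 5 genes of the first kind were at least 100 kb long, and there 5 of 25 receptor genes, or 20%, stood beside 22.8% of the autosomal genes of that length. None of the 5 was listed in all 4 LmnB1 libraries. These counts concern gene bodies alone. The GRM4 domains, of 35 and 33 kb in the mCherry_3 libraries, lay mostly beyond the gene's low-coordinate end. The 200 kb on that side were covered over 19.8% on average over the 8 libraries.

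Other genes of glutamate, GABA and glycine signalling were read from a list of 77 transporters, enzymes, scaffolds and receptor partners. Of these, 19 passed the filter and 0 were called in limma, while 1, SLC17A6, had an unadjusted p below 0.05 (that is, 1 of 19, where 3.65% of all tested genes did). CBLN4, a secreted cerebellin, was the one covered over at least 90% in all 8 libraries, at 100% in each. The 5 with the largest mean differences were SLC17A6, NETO1, CBLN1, DLGAP2 and SHISA6. SLC17A6, the vesicular glutamate transporter VGLUT2, was at 78.1%, 0, 0 and 0 with LmnB1 and at 90.3%, 96.1%, 100% and 57.2% with mCherry, a difference of -66.3 points (SE 27.8, limma adjusted p = 0.907). It was -85.9 points without LmnB1_16 replicate 1, the 1 LmnB1 library that overlapped the mCherry range (limma adjusted p = 0.225). Over the alternatives the adjusted p ran from 0.0629, in the highest-scoring 50% of domains, to 1. NETO1, a kainate receptor partner, and CBLN1, a cerebellin, differed by 41.1 and 36.2 points (limma adjusted p = 0.911 for both). Without mCherry_3 replicate 2 and without mCherry_3 replicate 1 the value for NETO1 was 23.2 and 62.7 points, without LmnB1_6 replicate 1 it was 27.0, at a log2 of at least 1 it was 25, for the gene body plus 50 kb it was 25.3, and at equal covered length it was -8.49. For CBLN1 it was 15.7 points without LmnB1_6 replicate 1, 61.2 without LmnB1_6 replicate 2, 55.6 without mCherry_3 replicate 1, 18.1 with domains joined and 2.17 for the gene body plus 50 kb. DLGAP2, a postsynaptic scaffold, and SHISA6, an AMPA receptor partner, differed by 19.5 and 18.2 points (limma adjusted p of 0.911 and 0.909), and by 10.4 and 10.8 without mCherry_4 replicate 2. At a log2 of at least 1 these differences were 10.6 and 47.1 points, and after subtracting library means 12.8 and 11.5. In the highest-scoring 50% of domains SHISA6 differed by 29.6 points. SHISA6 was the 1 gene of the list whose groups did not overlap, at 98.8% to 100% with LmnB1 and 54.5% to 98.5% with mCherry (1 of 19, where 2.69% of all tested genes were higher without overlap).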

How the data were processed

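H3K9me3 was profiled by Cut&Run, in which a nuclease tethered to an antibody cuts out marked chromatin, with the antibody ab8898 and an EpiCypher CUTANA protocol, per the labels' protocols. The authors deposited 1 domain list per library, with replicates not pooled. Named without roles in the submitters' processing notes are deepTools, SICER, DESeq2, DiffBind 3.0.15 and the build GRCh38 (hg38). For the aligner, nothing is given in the sources used here. The deposited lists carry no header, and the meaning of their columns was inferred from the values. Each deposited list was read as giving the count of H3K9me3 reads and of input reads per domain, a p-value and one adjusted for false discovery, the log2 enrichment over input, and a score, 100 times that log2 value. The input counts were equal in 3879 of 3879 comparisons of domains with identical coordinates, so 1 control serves all lists. The input sample was not used on its own. Domain starts fall on steps of 1000 bp.

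Covered percent was computed per gene body from a RefSeq table (GRCh38.p14, no exons, so exonic and intronic parts were not separated). Counts exist only for a library's own domains, so no count model was run. The limma fits (version 3.58.1, R 4.3.3) took in 2304 genes, those on the sex chromosomes included. Replicates are called biological in the labels, and p-values rest on the spread among these libraries. A single correlation within clones, 0.366, was used for all tested genes. A gene's own spread between clones is therefore not measured separately. The fit assumes normal errors, although covered percent is bounded at both ends. A GABR cluster is a run of genes under 1 Mb apart. The functions were tested on simulated data. Some genes are not reported by name here, nor drawn, and remain in the counts. Differences are otherwise given for the 10 tested receptor genes and the 5 other pathway genes with the largest values, a rule that, like the gene lists, was chosen with earlier results of these data known. Alternatives on the lists were equal covered length, log2 of at least 1, the highest-scoring 50%, and joined or longer domains. For equal covered length, each list was cut by score to the length of the shortest. Further alternatives were centring, no clone block, the replicate number as an added fixed term, other filters and flanks, and leaving out each library. Averaging the mCherry_3 pair was added after seeing the data. Other software was matplotlib 3.10.9, scipy 1.17.1, pandas 2.3.3, numpy 2.4.6 and Python 3.11.15.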

Additional observations from a re-analysis of the deposited data

Results flagged for a closer look

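In groups of 4 libraries, the values below lay apart from the other 3 by a gap that made up nearly all of the group's range (Dixon's limit at 95%). This was so in 12 of 28 groups of 4 libraries, where chance gives about 1 in 20, and where the other 3 are equal, as at 100% or 0, any gap is enough. With LmnB1, the library apart was LmnB1_6 replicate 2 for GABRG1 (2.53%), GABRA2 (11.6%), GABRA6 (50.9%), GABRB2 (72.9%), GRM7 (84.8%), GABRG3 (95.4%), GRM3 (98.2%) and GRID1 (0). It was LmnB1_6 replicate 1 for GABRA5 (90.3%). With mCherry, it was mCherry_4 replicate 2 for GRM6 (33.4%) and GRID1 (0), and mCherry_4 replicate 1 for GRIN3A (4.52%).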

How the results depend on the processing

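In no alternative was a receptor gene called. Over all genes, 5 were higher and 2 lower, with 2 and 0 for gene bodies plus 50 kb, 0 and 0 at a log2 of at least 1, and 1 lower in the highest-scoring 50%. With 1 library left out, 5 to 57 were higher, with 57 without LmnB1_6 replicate 2 and 9 without either mCherry_3 library, and 2 to 8 lower, with 8 without mCherry_4 replicate 2 and 4 without LmnB1_16 replicate 1. With the replicate number added as a fixed term and the clone kept as the random block, 5 were higher and 2 lower. In that fit 0 of the receptor genes were called. The replicate deviations of different clones correlated at -0.0245 to 0.0987, which gives no sign of pairing in those deviations. A correlation does not register a shift common to all genes, and such a shift by replicate number was not tested. Pooled over all domains, the log2 was lower in replicate 2 of every clone. It was 0.951 against 1.14 in LmnB1_16, and 0.710 against 0.932 in LmnB1_6. For mCherry_4 it was 0.722 against 0.856, and for mCherry_3 0.875 against 0.889. Replicate 2 also had the smaller covered genome in every clone, though barely in mCherry_3. Receptor genes whose groups did not overlap numbered 0 to 2 with 1 library left out, and GRIN3A, GABRG3 and GLRA1 were among them. Of all tested genes, 3.90% were higher without overlap when LmnB1_16 replicate 2 was left out, where 1 of 17 receptor genes was, 9.54% without LmnB1_6 replicate 2, where 2 of 17 were, and 4.14% without mCherry_3 replicate 2, where 1 of 17 was. Mean covered percent moved lower by more than 1 SD in 6 of 15 receptor genes at equal covered length and in 10 of 15 both at a log2 of at least 1 and in the highest-scoring 50%. The 8 receptor genes covered over at least 50% in all libraries became 5 at equal covered length, and 0 at a log2 of at least 1, in the highest-scoring 50% and at a 90% limit. The 12 with both flanks covered became 6, 0 and 5 in these first 3 settings. Starts listed in all libraries numbered 2 with domains joined and 0 to 1 with 1 library left out.

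Differences turned sign as follows. At equal covered length they were -13.9 (GABRA5), -21.7 (GABRG3) and -8.49 points (NETO1). At a log2 of at least 1 they were 25 (GABRA2 and GABRG1) and 50 (GABRA6). Domains were left there in LmnB1_16 replicate 1 alone for GABRA2 and GABRG1, and in the LmnB1_16 pair alone for GABRA6. In the highest-scoring 50% they were 37.7 (GABRA6) and -14.9 (NETO1). With 1 library left out they ran from -32.4 to 6.60 (GABRA2) and -27.7 to 14.6 (GABRG1). The cause was not tested. Domain lists hold no reads below the threshold, so a gene outside them at this depth is not shown to lack the mark.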

Other observations

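The 5 receptor genes on the X chromosome were outside the comparisons above, and their coverage varied widely between libraries except in GABRQ. GABRA3, an alpha subunit, was covered over 95.8%, 98.6%, 81.4% and 0 with LmnB1 and over 85.5%, 88.1%, 57.4% and 32.0% with mCherry. GABRE, the epsilon subunit in the same region, was at 100%, 87.6%, 100% and 0 with LmnB1 and at 87.6%, 82.9%, 0 and 0 with mCherry, while GABRQ, the theta subunit nearby, was at 0 in all 8. GRIA3, the one AMPA receptor gene with listed domains, was at 33.8%, 4.89%, 0 and 0 with LmnB1 and at 39.1%, 45.2%, 34.9% and 2.94% with mCherry. GLRA2 ran from 2.55% to 35.1%, with its highest value in LmnB1_6 replicate 1.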
